A study of Mus musculus with 21 samples.

Results

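Genes with -ps in their symbol, which marks a pseudogene and often follows the name of a parent gene, were examined in testes of postnatal day 10 mice. The deposited table held 32643 genes, of which 597 carried such a name. The 201 with 50 or more raw reads summed over all 21 libraries were kept as the set described here. The members were chosen by their read sums, so the levels given below describe them. The labels of genotype and exposure were not used, but a member read in a single genotype can reach the sum through that genotype alone. Just inside the threshold lay Gsdmcl-ps with 50 reads and Hist3h2bb-ps and Rpl13-ps3 with 51 each. Just outside lay Gpx2-ps1 with 49 reads and Cox20-ps and Rpl30-ps2 with 48 each.

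A processed pseudogene arises when a spliced messenger RNA is copied back into DNA and inserted at a new place in the genome. Such a copy lacks introns and usually a promoter of its own, and a copy made in the germ line is inherited. Genes with abundant transcripts, ribosomal protein genes above all, have left many copies, and the testis is known for transcription of many sequences that are silent elsewhere. An unprocessed pseudogene is instead a decayed duplicate that keeps the exons and introns of its parent.

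The libraries came from total RNA of 21 individual animals, all 50% 129sv and 50% C57Bl6 and all at postnatal day 10. FXR KO mice, which lack the bile acid receptor FXRα encoded by Nr1h4, gave 9 libraries, with 3 animals each on vehicle, bisphenol-A (BPA) and stigmasterol. Wild-type (WT) mice gave 12 libraries, with 4 animals on each of the same treatments. BPA is a plastic monomer with hormone-like activity and stigmasterol is a plant sterol. The sources used here give neither the deleted part of Nr1h4 nor the doses or the route of exposure. Nr1h4 was low in both genotypes, at 0.306 ± 0.0886 CPM in KO libraries (SD, n = 9) and 0.526 ± 0.18 CPM in WT libraries (SD, n = 12). CPM are raw counts divided by the library size after scaling by the trimmed mean of M values (TMM). The log2 fold change was -0.78 (edgeR adjusted p = 0.0303).

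The members were a mixed set when checked against the GENCODE annotation. That annotation listed 135 of the 201 as processed pseudogenes and 48 as unprocessed pseudogenes. A further 12 were of remaining types, among them 6 protein-coding genes, and 6 identifiers had no entry in it. The name "processed" therefore applied to 135 members, and 142 members had a single exon. Member counts were highest on chromosomes X with 23 and 11 with 22. Copies of ribosomal protein genes made up 87 members, of which 82 were annotated as processed. Receptors of smell and pheromones made up 11 members, of which 0 were annotated as processed.

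Depth was high and the members were mostly faint. Raw counts per library summed to between 35459523 and 61498855, and all members together took 0.0337% to 0.0426% of them. Single members ranged from 50 to 63391 reads over all libraries, with a median of 158, and 163 of 201 averaged under 1 CPM. A read was found in every library for 134 members. A count of 0 in a library allowed a level of up to 0.0484 to 0.0884 CPM, as 3 reads of its total, which covers counting error only. Only 112 members passed the filter on low counts and were tested, and 89 did not, the largest of which was Mrpl48-ps with 204 reads. The kit did not mark strand, so reads from a member and from a gene on the opposite strand could not be told apart.

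Sequence decides how well reads of a copy can be told from those of its parent. Of the 140 members whose name led to a gene in the table, 138 could be aligned to a coding transcript of it. Identity over the aligned part ran from 73.2% to 100%, with a median of 96.8%, and was 99% or more in 29 members. The named parent was the best coding match for 136 of the 140. The parent lay on another chromosome for 129 of them. The 5 pairs that carry the results below are each shown over a stretch of 100 bases in which copy and parent differ most, within the coding part of the parent. Capitals mark bases that differ between copy and parent, and all sequences are from GENCODE transcripts on mm10, written 5′ to 3′ on the strand of the transcript.

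Akt2-ps on the plus strand at chr11:16514589-16514688 differed from Akt2, plus strand at chr7:27616251-27616350, at 3 of these 100 bases. The pair is shown because Akt2-ps was the member whose KO and WT libraries lay farthest apart.
Akt2-ps: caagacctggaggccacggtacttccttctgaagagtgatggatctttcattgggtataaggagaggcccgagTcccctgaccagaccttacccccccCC
Akt2: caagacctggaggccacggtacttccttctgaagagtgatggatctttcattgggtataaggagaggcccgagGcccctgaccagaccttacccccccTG

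Ccnd3-ps on the minus strand at chr4:139345365-139345464 differed from Ccnd3, plus strand at chr17:47598612-47598711, at 8 of 100 bases. It is shown as the second member with reads almost wholly from KO libraries.
Ccnd3-ps: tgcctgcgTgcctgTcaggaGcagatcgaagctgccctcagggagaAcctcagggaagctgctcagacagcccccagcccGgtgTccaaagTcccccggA
Ccnd3: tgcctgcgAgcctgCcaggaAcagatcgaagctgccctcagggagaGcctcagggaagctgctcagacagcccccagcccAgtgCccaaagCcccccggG

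Eif5al3-ps on the plus strand at chr5:90132446-90132545 differed from its closest coding match Eif5a at 8 of 100 bases. The Eif5a stretch, minus strand within chr11:69917682-69917969, crosses an intron that is absent from the copy. The pair is shown for a copy that was read in animals of both genotypes.
Eif5al3-ps: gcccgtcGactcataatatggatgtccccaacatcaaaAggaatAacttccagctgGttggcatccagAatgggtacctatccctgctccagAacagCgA
Eif5a: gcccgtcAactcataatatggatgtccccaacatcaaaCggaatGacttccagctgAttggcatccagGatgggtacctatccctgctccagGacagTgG

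Pcna-ps2 on the plus strand at chr19:9283456-9283555 and Pcna on the minus strand at chr2:132252860-132252959 differed at 2 of 100 bases. Pcna is one of the parents that was called between genotypes.
Pcna-ps2: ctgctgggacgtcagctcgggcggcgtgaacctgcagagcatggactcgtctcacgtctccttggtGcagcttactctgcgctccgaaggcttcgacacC
Pcna: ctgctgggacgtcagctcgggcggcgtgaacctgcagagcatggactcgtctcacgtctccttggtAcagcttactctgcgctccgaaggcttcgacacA

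Rps26-ps1 on the minus strand at chr8:107439463-107439562 lies in an intron of Wwp2, a gene on the opposite strand. It differed at 1 of 100 bases from Rps26, whose stretch on the minus strand within chr10:128626144-128626478 again crosses an intron. Rps26 was another parent called between genotypes.
Rps26-ps1: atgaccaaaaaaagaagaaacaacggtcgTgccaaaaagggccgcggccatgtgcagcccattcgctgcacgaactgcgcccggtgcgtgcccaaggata
Rps26: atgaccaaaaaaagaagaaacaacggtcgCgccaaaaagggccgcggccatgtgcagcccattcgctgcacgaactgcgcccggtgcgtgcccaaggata

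The first question was which members were present in one genotype only. By the strict rule, at most 3 reads in every library of one genotype and more than 3 in every library of the other, 0 of the 201 members qualified. Akt2-ps came closest. Akt2 itself encodes a protein kinase of insulin signalling. Its copy, at chr11:16514533-16515981, had 110 to 205 reads in the 9 KO libraries with a median of 141, against 1 to 11 reads in the 12 WT libraries with a median of 2.5. All 9 KO libraries lay above all 12 WT libraries, and the gap between 11 and 110 reads was empty. With a floor of 12 or 20 reads in place of 3, Akt2-ps was the member that qualified, and with a floor of 10 it was Vmn2r-ps54 instead.

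Vmn2r-ps54, a decayed vomeronasal pheromone receptor gene, had 11 to 26 reads in KO libraries and 1 to 10 reads in WT libraries. Its ranges did not overlap, but the nearest KO and WT libraries differed by a single read. It shares 211 exon bases with Vmn2r-ps55 on the same strand and 110 with Gm9252 on the opposite strand, so its reads may be split. Akt2-ps and Vmn2r-ps54 were the 2 members whose CPM ranges did not overlap between genotypes. Of all genes tested, 1.05% did so, 0.434% with KO higher and 0.617% with WT higher.

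At most 3 reads in every WT library were found for 1 member, Kifc5c-ps, a copy closest to the motor protein gene Kifc1. It had 8, 14 and 26 reads in KO vehicle libraries, 0, 0 and 5 in KO BPA libraries and 7, 8 and 15 in KO stigmasterol libraries. WT libraries held 3 reads in all, 2 of them in one vehicle library. Summed over libraries and corrected for their size, the ratio of KO to WT reads was 34.7, with an exact 95% interval of 11.5 to 172 for counting error only. Since this member reached 50 reads only through the KO libraries, 2 of which held 0 reads, the ratio describes these libraries and is no test. At most 3 reads in every KO library were found for 3 members, Mrpl48-ps, Rpl21-ps10 and Tma7-ps. Mrpl48-ps had 0 to 2 reads in KO libraries and reached 130 and 66 reads in only a WT vehicle and a WT BPA library. Tma7-ps had 0 or 1 read in KO libraries and reached 26 and 21 reads in a pair of WT BPA libraries. Rpl21-ps10 had 0 to 3 reads in KO libraries and 0 to 7 in WT libraries. No member was at 0 in every library of a genotype.

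Ccnd3-ps copies the gene of a D-type cyclin, which drives cells out of the first gap phase. It had 96, 100 and 151 reads in KO vehicle libraries, 0, 4 and 121 in KO BPA libraries and 56, 100 and 165 in KO stigmasterol libraries. WT libraries held 0 to 6 reads. In all, 7 of 9 KO libraries were high, and KO BPA animals T25 and T83 lay in the WT range.

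In the test across all 20254 genes, 17 members were higher and 1 was lower in KO testes than in WT testes when the treatments were averaged. These 18 were 16.1% of the 112 tested members, against 13.9% of all genes tested, so the share lay close to the background. By direction, 15.2% of tested members were higher in KO, against 6.85% of all genes, and 7.07% of all genes were lower. The median log2 fold change, KO over WT, was 0.16 over the tested members and 0.01 over all genes. Because a faint member can pass the filter only through the groups where it is high, these counts describe the tested members and not all 201. The test was edgeR's quasi-likelihood test with Benjamini-Hochberg adjustment over all genes, two-sided, called at 0.05. In whole testes, fewer cells of a type and less RNA per cell cannot be told apart.

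The name stems listed for signalling and cell cycle genes matched 4 members, all tested, and 3 were higher in KO, where 6.85% of all genes were higher. Akt2-ps and Ccnd3-ps reached the read sum of the set only with their KO libraries, so this count describes these members and is no test of the family. The fourth, Cdk3-ps, gave -0.29 (edgeR adjusted p = 0.0982), and copies of other cell cycle genes such as Pcna-ps2 fall outside these stems. Akt2-ps had a log2 fold change of 5.37 ± 0.296 (SE, edgeR adjusted p = 3.45e-10) and Ccnd3-ps one of 5.32 ± 0.666 (edgeR adjusted p = 2.75e-05). Both were called in all 21 fits that left out 1 library each. Ccnb2-ps, a copy of a mitotic cyclin gene, rose by far less, to a median of 4.38 CPM in KO libraries, against 3.87 CPM in WT libraries (log2 fold change 0.24 ± 0.072, edgeR adjusted p = 0.0347). That call held in 9 of the 21 fits that left out 1 library.

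Altogether 10 of the 112 tested members were called with a rise of 1 or more on the log2 scale, as were 1.9% of all genes. Kifc5c-ps had a log2 fold change of 4.35 (edgeR adjusted p = 0.00198), a fit that rests on 3 WT reads and was lost without KO BPA animal T117. Stk19-ps1, a decayed copy of the gene Stk19, had 18, 19 and 24 reads in KO vehicle, 3, 4 and 5 in KO BPA and 7, 10 and 12 in KO stigmasterol libraries, against 0 to 5 reads in WT libraries. It gave 2.33 ± 0.413 (SE, edgeR adjusted p = 0.00102), with KO BPA libraries inside the WT range of reads. Vmn2r-ps54 gave 1.86 ± 0.235 (SE, edgeR adjusted p = 3.19e-05).

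A further 4 members lay between 1.02 and 1.33 on the log2 scale. Ncr3-ps is the mouse remnant of a natural killer cell receptor gene and gave 1.33 (edgeR adjusted p = 0.00616). Psmb5-ps, a copy of the gene of a catalytic proteasome subunit, gave 1.23 (edgeR adjusted p = 0.0449), but was called in only 6 of the 21 fits without 1 library. Tmem181c-ps gave 1.09 (edgeR adjusted p = 0.022) and Rpl13a-ps1, a copy of a large ribosomal subunit protein gene, gave 1.02 (edgeR adjusted p = 0.0306). In each of these 4, single KO and WT libraries overlapped, with Tmem181c-ps at 0.786 to 2.43 CPM in KO libraries and 0.307 to 2 CPM in WT libraries. Psmb5-ps shares 109 exon bases with the microRNA gene Gm22920.

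Smaller rises came from Cyp4f41-ps at 0.96, the odorant receptor remnant Olfr1372-ps1 at 0.57 and Nlrp5-ps at 0.53, named after a gene of the oocyte. Pced1c-ps and Speer7-ps1 followed at 0.37 each and Ppp4r1l-ps at 0.12, with edgeR adjusted p-values of 0.00347 to 0.0304 for these 6 members. Speer7-ps1 shares 335 exon bases with Speer4c, a protein-coding gene on the opposite strand, so reads from that part could not be told apart. Cyp4f41-ps and Nlrp5-ps kept their call in all 21 fits without 1 library, Ppp4r1l-ps in 19, Olfr1372-ps1 in 18, Pced1c-ps in 17 and Speer7-ps1 in 11. Mageb7-ps, of the X-linked MAGE gene family, was the 1 member that fell. It had 17.3 to 25.4 CPM in KO libraries with a median of 22.2, against 18.8 to 39.3 CPM in WT libraries with a median of 28.6 (log2 fold change -0.37 ± 0.11, edgeR adjusted p = 0.0295). It was called in 16 of the 21 fits without 1 library and not by limma-voom. Of the 18 called members, 8 were annotated as processed pseudogenes.

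**Figure D1:**
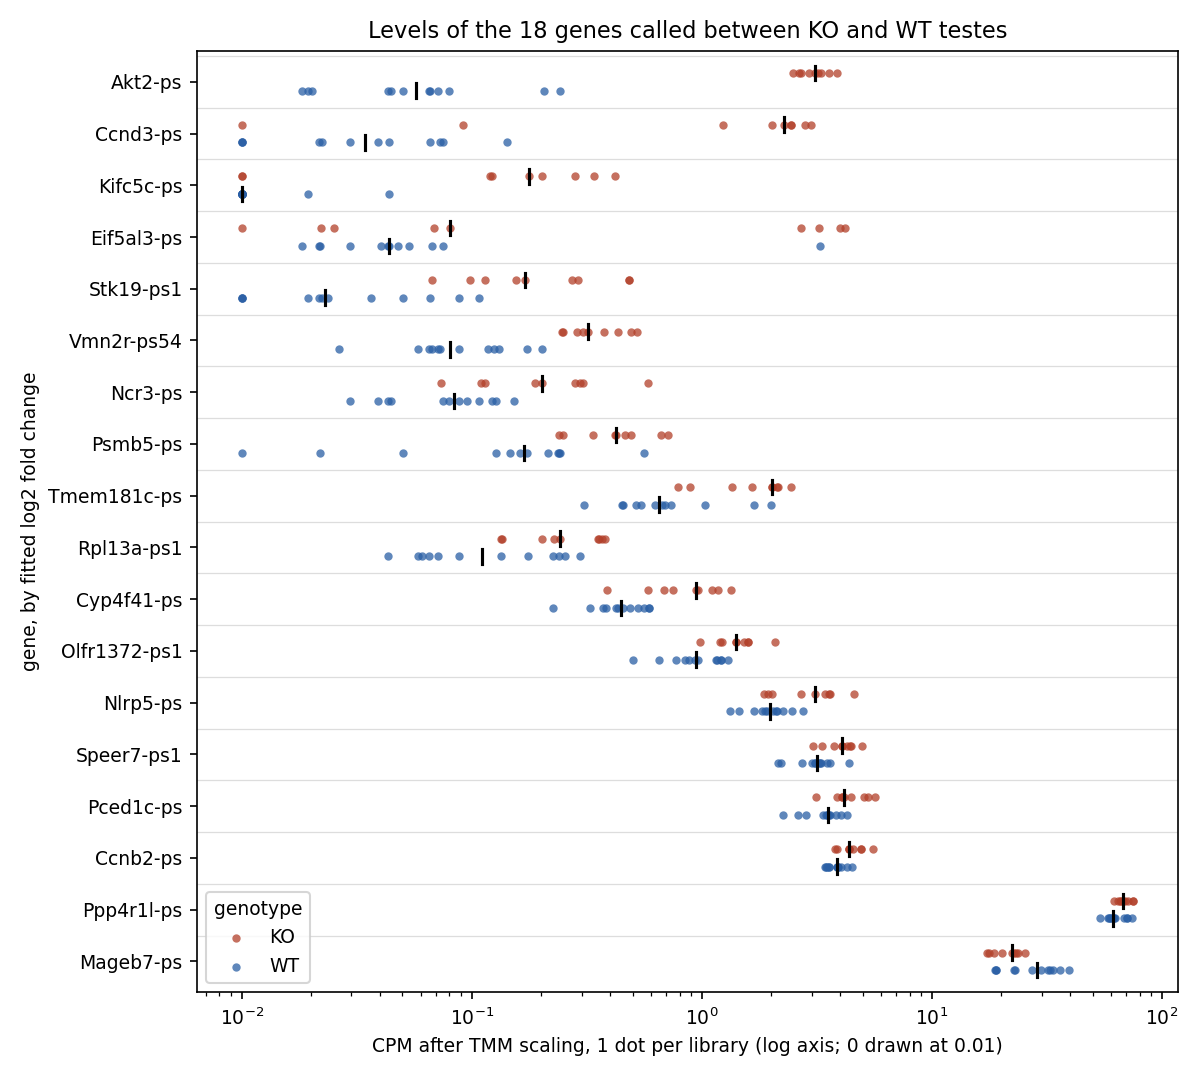
CPM in each library for the 18 members called between KO (red, upper dots of each row) and WT (blue, lower dots) testes, with the median as a black bar, on a log axis where 0 is drawn at 0.01. Akt2-ps separates fully, Ccnd3-ps has 2 of 9 KO libraries among the WT libraries, and the lower rows overlap over most of their range.

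Tissue content moved with genotype as well. Cdh16, a marker of epithelial duct cells, was at 10 CPM or more in 6 of 9 KO libraries and 3 of 12 WT libraries. Of 5 epididymis and efferent duct markers, 4 were higher in KO, with a summed level of 98.8 to 468 CPM in KO and 51.7 to 126 CPM in WT libraries, and none of the 5 at 0 in any library. Of 5 Sertoli cell markers 4 were lower in KO, at a summed 928 to 1225 CPM in KO and 1097 to 2032 CPM in WT libraries. Of 5 germ cell markers 0 were called, at a summed 821 to 1458 CPM in KO and 624 to 1450 CPM in WT libraries. Likewise 3 of 4 fat markers were higher in KO, at a summed 10.2 to 89.5 CPM in KO and 9.24 to 20.5 CPM in WT libraries. Leaving out the 9 libraries above that Cdh16 level kept 9 WT libraries and 3 KO libraries, 1 in each treatment. Most of the 18 calls were not kept in that fit, whose KO groups were single animals, so only its log2 fold changes are given. Akt2-ps stood at 5.19, Ccnd3-ps at 4.01 and Pcna-ps2 at -6.85. Folds of other called members went both ways in this smaller set of libraries. Kifc5c-ps at 3.53, Stk19-ps1 at 1.88, Vmn2r-ps54 at 1.45, Ncr3-ps at 0.81, Cyp4f41-ps at 0.70, Nlrp5-ps at 0.41 and Ppp4r1l-ps at 0.09 were smaller than with all libraries. Psmb5-ps at 1.20, Rpl13a-ps1 at 1.03, Tmem181c-ps at 1.00 and Ccnb2-ps at 0.23 were of like size. Olfr1372-ps1 at 0.69, Speer7-ps1 at 0.49, Pced1c-ps at 0.45 and Mageb7-ps at -0.46 were larger in their direction. The part of tissue content in the calls made with all libraries was not tested.

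Within a treatment the calls were fewer. On vehicle 7 members were higher and 0 lower in KO, 6.25% of those tested against 2.92% of all genes, of which 1.24% were higher and 1.68% lower. They were Akt2-ps, Ccnd3-ps, Kifc5c-ps, Stk19-ps1, Vmn2r-ps54, Ncr3-ps and Pced1c-ps. All but Pced1c-ps entered the set or the test only through KO libraries, so the shares within a treatment are descriptions as well. On BPA 2 were higher, Akt2-ps at 5.05 (edgeR adjusted p = 4.87e-06) and Vmn2r-ps54 at 2.07 (edgeR adjusted p = 0.0161), 1.79% against 0.859% of all genes, 0.43% in each direction. On stigmasterol 8 were higher and 1 lower, 8.04% against 7.21% of all genes, of which 3.87% were higher and 3.34% lower. The lower one was Mageb7-ps, and those higher included Akt2-ps, Ccnd3-ps, Kifc5c-ps, Stk19-ps1, Nlrp5-ps and Rpl3-ps1. Akt2-ps was the member called in all 3 treatments. The difference between treatments was not called for any member by the interaction tests given below.

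A second pattern was a split of the libraries. For 11 members the libraries fell into a low and a high level, with an empty gap of at least 4-fold in raw reads and at least 2 libraries on each side, a description chosen after the values were seen. That was 5.47% of the members, against 0.577% of all 22707 genes with 50 or more reads. Among members annotated as processed the share was 7.41%, and among 1044 other processed pseudogenes without a -ps name it was 4.41%. Protein-coding genes showed it in 0.287%. The smallest gap inside the rule was 2.81 on the log2 scale, in Oaz2-ps, and the largest outside it was 1.81, in Vmn2r-ps94. Of the 11, 10 were annotated as processed, and 3 were among the 18 called members, Akt2-ps, Ccnd3-ps and Eif5al3-ps.

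**Figure D2:**
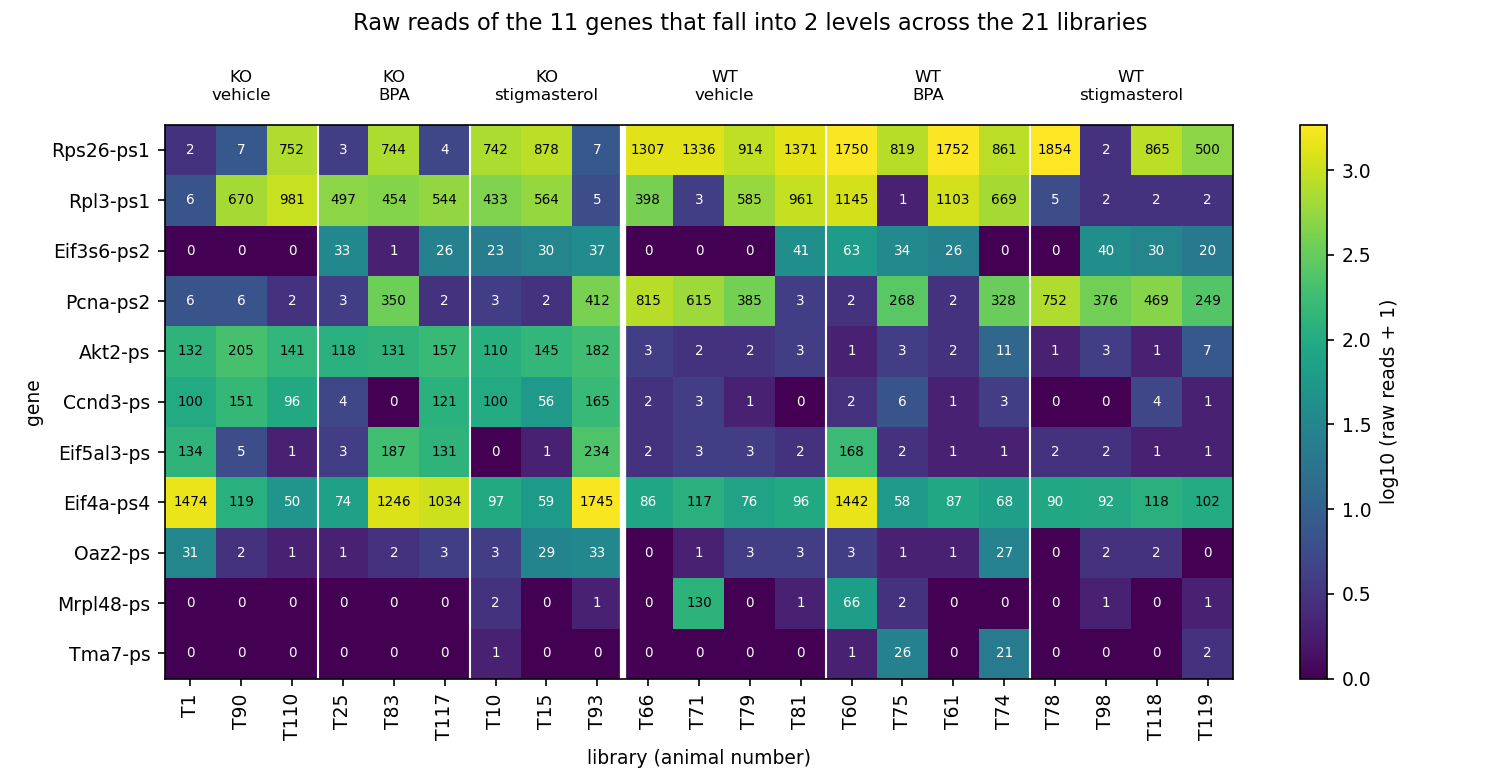
Raw reads of the 11 members with a gap of at least 4-fold, in rows, across the 21 libraries, in columns, with KO groups left of the thick line and WT groups right of it; colour gives log10 of reads plus 1. Akt2-ps is high in all 9 KO libraries, while the other rows mix high and low animals within groups of 1 genotype and treatment, or are high in a few animals only.

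Copies of translation factor genes were 3 members and all 3 showed the gap. Eif4a-ps4, closest to the RNA helicase gene Eif4a1, stood at 29.6 CPM in 1 KO vehicle library, 25.4 and 27.8 CPM in KO BPA libraries, 29.8 CPM in 1 KO stigmasterol library and 28.2 CPM in 1 WT BPA library. The other 16 libraries lay between 1.27 and 3 CPM. Eif5al3-ps, closest to Eif5a, the gene of a factor that helps ribosomes through difficult stretches, was high in the same 5 animals, T1, T83, T117, T93 and T60, with 131 to 234 reads. The remaining 16 libraries held 0 to 5 reads. The copies lie on different chromosomes, 1 and 5. Of the 5 high animals 4 were KO and 1 was WT, and in all 5 the duct marker Cdh16 stood at 17.6 CPM or higher. Animals T81, T75, T110 and T10 also had Cdh16 at 17.6 CPM or higher, up to 86 CPM in T10, and were low for both copies. The part of duct tissue in this was not tested. The fitted genotype difference of Eif5al3-ps, 3.57 ± 1.1 (SE, edgeR adjusted p = 0.0368), was lost in 13 of the 21 fits that left out 1 library, where the adjusted p ranged from 0.00438 to 0.769. Eif4a-ps4 gave 1.91 (edgeR adjusted p = 0.0792), and -0.33 without the 9 libraries high in Cdh16. Those 9 include all 5 high animals, so the smaller fit holds no high animal and its value cannot bear on the part of duct tissue. Eif3s6-ps2, closest to the initiation factor subunit gene Eif3e, had 20 to 63 reads in 5 KO and 7 WT libraries and 0 or 1 in the others (log2 fold change -2.26, edgeR adjusted p = 0.269).

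Copies of ribosomal protein genes were mostly faint. Of 87, 38 were tested and 1 was called, Rpl13a-ps1, with a median of 0.15 and a range of -1.68 to 2.17 on the log2 scale. The ends of that range were both members with a gap, Rps26-ps1 and Rpl3-ps1. Rps26-ps1 had 2, 7 and 752 reads in KO vehicle, 3, 4 and 744 in KO BPA and 7, 742 and 878 in KO stigmasterol libraries. WT libraries held 914 to 1371 reads on vehicle, 819 to 1752 on BPA and 2, 500, 865 and 1854 on stigmasterol. In all, 4 of 9 KO libraries and 11 of 12 WT libraries were high, and the fitted difference of -1.68 ± 0.905 (SE) was not called (edgeR adjusted p = 0.241).

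Rpl3-ps1 on the X chromosome had 6, 670 and 981 reads in KO vehicle libraries, 454, 497 and 544 in KO BPA and 5, 433 and 564 in KO stigmasterol libraries. WT libraries held 3, 398, 585 and 961 reads on vehicle, 1, 669, 1103 and 1145 on BPA and 2, 2, 2 and 5 on stigmasterol. All 4 WT stigmasterol animals were low. KO against WT on stigmasterol accordingly gave 6.89 ± 2 (SE, edgeR adjusted p = 0.0424), while over all treatments the difference was 2.17 (edgeR adjusted p = 0.137). Divided by gene length in the authors' normalized signal, Rps26-ps1 averaged 1869 and Rps26 16643 per kb, and Rpl3-ps1 averaged 344 and Rpl3 14489 per kb. Per length both copies thus stood well below their parents.

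Pcna-ps2 copies the gene of the sliding clamp that holds DNA polymerase on its template. It had 2, 6 and 6 reads in KO vehicle, 2, 3 and 350 in KO BPA and 2, 3 and 412 in KO stigmasterol libraries. WT libraries held 3, 385, 615 and 815 reads on vehicle, 2, 2, 268 and 328 on BPA and 249, 376, 469 and 752 on stigmasterol. High levels were found in 2 of 9 KO and 9 of 12 WT animals. The difference of -3.05 ± 1.07 (SE) missed the threshold (edgeR adjusted p = 0.0662) and passed it without KO animals T83 or T93 or without WT animal T81. Oaz2-ps, a copy of a gene that limits polyamine synthesis, had 27 to 33 reads in 3 KO libraries and 1 WT library and 0 to 3 in the others (1.56, edgeR adjusted p = 0.236). Mrpl48-ps, from a mitochondrial ribosome gene, and Tma7-ps, from the gene of a ribosome-associated protein, were high in the 2 WT libraries each given above and were not tested.

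Other genes of the table were split over the same animals. High in exactly the 9 libraries in which Akt2-ps was high were 12 genes with such a gap, among them the relaxin receptor gene Rxfp1, and 9 genes were high in exactly the 12 others. These genes lay on many chromosomes, and Gm11677 was the one on chromosome 11 with Akt2-ps. The genotype itself is the same split of the animals. Another 5 genes shared the 7 KO libraries of Ccnd3-ps, with Gm11222 on its chromosome 4 and Obox6, a homeobox gene, on chromosome 7. Rps26-ps1 was high in the same 15 libraries as Gm6563 on chromosome 19. For Pcna-ps2, Rpl3-ps1, Mrpl48-ps, Oaz2-ps and Eif3s6-ps2 no gene with such a gap had the same or the opposite set of libraries.

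The second question was how the parent genes behaved. The 140 members named after a gene in the table had 85 distinct parents, of which 84 were tested. Of these, 6 were higher in KO, among them Pcna, Rpl10a, Rpl31, Rps15 and Rps26, and 1 was lower, Vdac3, a channel gene of the outer mitochondrial membrane. That was 8.33% of the parents, against 13.9% of all genes. Over all 84 parents by name the changes ran from -0.26 to 0.28 on the log2 scale, with a median of 0.01. Rpl10a gave 0.28 ± 0.0342 (SE, edgeR adjusted p = 2.47e-05), at a mean of 245 CPM in KO and 202 CPM in WT libraries. Rpl31 gave 0.20 (edgeR adjusted p = 0.000291) and Vdac3 gave -0.20 (edgeR adjusted p = 0.00495). A further 33 members had a closest coding match only, and 28 had neither. Among the 31 distinct closest matches 26 were tested, and 3 were higher and 1 was lower in KO, 15.4% of those tested. Their changes ran from -2.16 to 1.01 with a median of -0.01. The widest was that of H2-Q10, a class I histocompatibility gene and the closest match of H2-M6-ps at 71.1% identity, with a mean of 32.6 CPM in KO and 67.1 CPM in WT libraries (log2 fold change -2.16, edgeR adjusted p = 0.000145). The 3 that rose were Hba-a1, a haemoglobin gene, at 1.01 (edgeR adjusted p = 0.0263), Hist3h2ba, a histone gene, at 0.60 (edgeR adjusted p = 0.00971) and Xlr3a at 0.46 (edgeR adjusted p = 0.00901).

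Parents of called members were not called. Akt2 had 196 ± 6.82 CPM in KO libraries (SD, n = 9) and 201 ± 16.9 CPM in WT libraries (SD, n = 12), a log2 fold change of -0.04 (edgeR adjusted p = 0.59). Ccnd3 had 85.5 ± 9.42 CPM in KO and 90.8 ± 12.9 CPM in WT libraries, a change of -0.09 (edgeR adjusted p = 0.463). Kifc1 gave -0.06, Eif5a gave -0.00, Stk19 gave 0.01 and Psmb5 gave -0.03, with edgeR adjusted p-values of 0.685 to 0.971. Among 65 tested members with a tested parent by name, the member was called in 7, the parent in 8 and both in 0, where 13.9% of all genes were called. Rpl31 entered the 8 once for each of its tested copies. Calls were few on both sides, so the count of 0 for both was not read further. Members spread from -3.05 to 5.37 in this set and parents from -0.26 to 0.28.

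**Figure D3:**
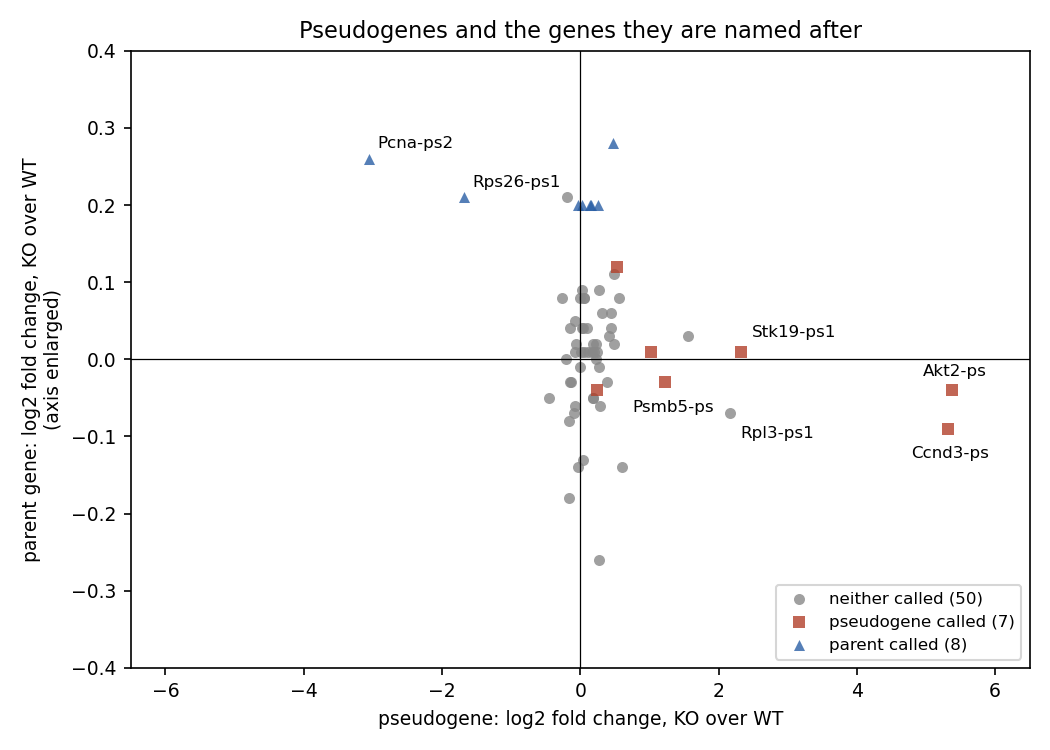
Log2 fold change, KO over WT, of 65 tested members (horizontal) and of the parent genes they are named after (vertical, enlarged axis), with called members as red squares and called parents as blue triangles. Members reach 5.37 while no parent exceeds 0.28, and no point is called on both axes, where calls were few on either axis.

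Copies were small beside their parents. Reads of a member, summed over all libraries, were 0.00937% to 555% of those of its parent, with a median of 0.0704%, and 126 of 140 lay under 1%. The 5 above 10% were Nlrp5-ps at 555%, a member that overlaps Vmn1r90, Pisd-ps1 at 111%, Tdgf1-ps2 at 97.1%, Pisd-ps2 at 32.4% and Gpr137b-ps at 24.1%. Pisd encodes the mitochondrial enzyme that makes phosphatidylethanolamine. Akt2-ps reads were 0.711% and Ccnd3-ps reads 0.96% of those of the parent, so that adding them moved neither parent's call. When reads of members were added to those of their parents, a check added after the values were seen, 3 of 110 parents changed their call, Pcna, Rps26 and Nlrp5.

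Pcna alone had 72.3 to 91.2 CPM in KO libraries and 61.9 to 79 CPM in WT libraries, a change of 0.26 ± 0.0545 (SE, edgeR adjusted p = 0.00378). With Pcna-ps2 added the sum had 76.7 to 91.3 CPM in KO and 62 to 84.8 CPM in WT libraries, and the change was 0.14 (edgeR adjusted p = 0.103). Pcna and Pcna-ps2 are 99.2% identical, and the longest run without a difference is 246 bases. In KO animals T83 and T93, where Pcna-ps2 stood at 7.82 and 7.04 CPM, Pcna stood at 72.3 and 75.8 CPM, the lowest pair of the 9 KO values. In WT animals T66 and T71, where the copy was at 17.9 and 15.4 CPM, Pcna was at 63.8 and 63.5 CPM. The 3 WT animals with a low copy differed among themselves. T81 and T61, with the copy at 0.0799 and 0.0434 CPM, had Pcna at 63.3 and 61.9 CPM, and T60, with the copy at 0.0391 CPM, had the highest WT value of 79 CPM.

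Rps26 alone had 170 to 232 CPM in KO and 146 to 190 CPM in WT libraries, a change of 0.21 ± 0.0506 (SE, edgeR adjusted p = 0.0111). With Rps26-ps1 added the sum had 180 to 232 CPM in KO and 156 to 210 CPM in WT libraries, and the change was 0.06 (edgeR adjusted p = 0.322). Copy and parent are 99.1% identical. The identifier of Eif4a-ps4 in the table has no GENCODE entry, and a gene of the same name within its span, 99.9% identical to Eif4a1, stands for its sequence here. Eif4a1 stood at 358 CPM in KO vehicle animal T1, its lowest value, where the copy was at 29.6 CPM. Nlrp5 was faint at 0.329 to 0.749 CPM in KO and 0.263 to 0.693 CPM in WT libraries, and its sum with Nlrp5-ps gave 0.47 (edgeR adjusted p = 0.0113), most of it reads counted for Nlrp5-ps. That member shares 1757 exon bases with the protein-coding gene Vmn1r90 on the same strand, and only 19.6% of its transcript aligned to Nlrp5, so its reads cannot be assigned to a copy of Nlrp5 alone.

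**Figure D4:**
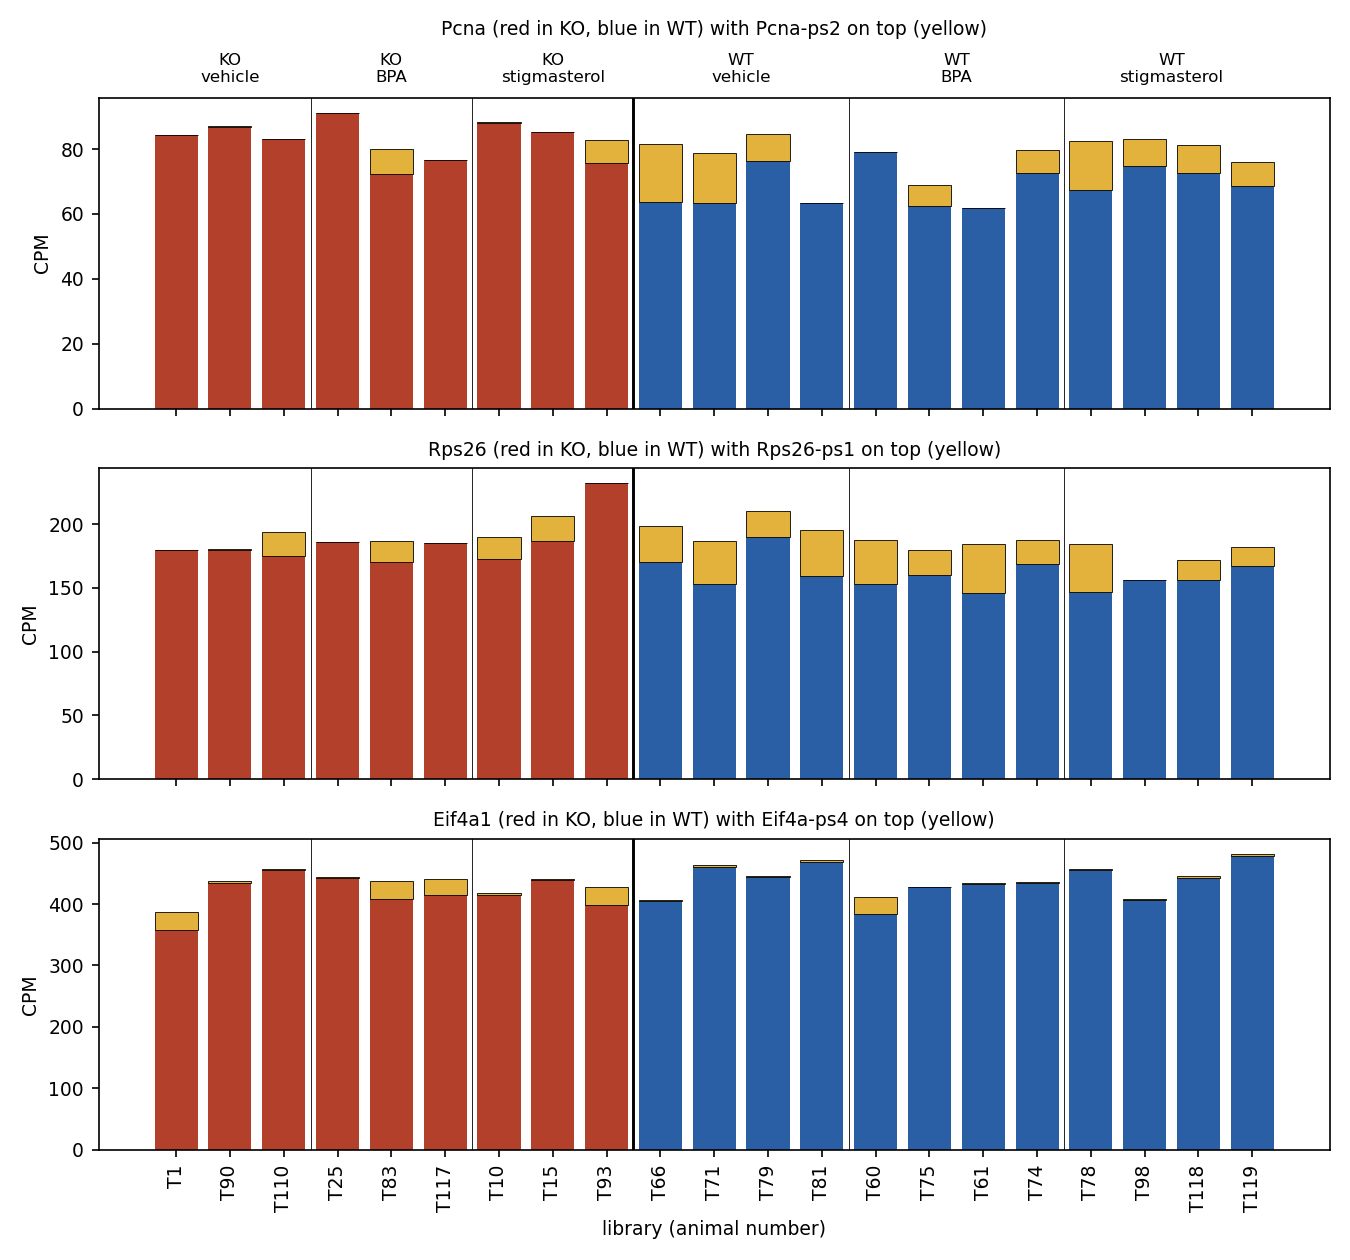
CPM of Pcna, Rps26 and Eif4a1 in each library (bars, red in KO and blue in WT) with the CPM of the copy stacked on top (yellow). Pcna-ps2 tops 2 of 9 KO bars and 9 of 12 WT bars, and the stacked bars of Pcna and Rps26 overlap between genotypes more than the parent bars do.

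The most abundant members were mostly other genes. Ppp4r1l-ps, a remnant of a phosphatase subunit gene with 22 exons, led with a median of 67.5 CPM in KO and 61.4 CPM in WT libraries. Pisd-ps1 had a median of 62.6 CPM in KO and 59.4 CPM in WT libraries, and its difference of 0.04 was not called (edgeR adjusted p = 0.804). Tmem181b-ps, Mageb7-ps, Pisd-ps2, Rps26-ps1, Slc2a4rg-ps, Mageb10-ps, Rpl3-ps1 and Eif4a-ps4 completed the first 10. Pisd-ps1 averaged 3519 per kb in the authors' signal, against 1194 per kb for Pisd, so this copy stood above its parent per length. Mageb10-ps gave 0.08 and Slc2a4rg-ps 0.07, with edgeR adjusted p-values of 0.523 and 0.55.

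Genes around the members were counted as well. Within 1 Mb of the 18 called members, 114 of 506 tested genes, or 22.5%, were called between genotypes. Within 1 Mb of the 94 tested members that were not called, the share was 325 of 2331, or 13.9%, and over all genes it was 13.9%. Single surroundings ranged from 0 called of 15 tested around Eif5al3-ps to 24 of 56, or 42.9%, around Ccnb2-ps on chromosome 8. On chromosome 17, the surroundings of Stk19-ps1 held 39 called of 131 tested genes, or 29.8%, and those of Ncr3-ps, which overlap them, 27.4%. Around Akt2-ps 1 of 12 tested genes was called. Much of the 114 called genes thus lay in few places, 39 around Stk19-ps1 and 24 around Ccnb2-ps. No test was made of these shares.

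No member was called for an exposure by edgeR, while DESeq2 and the authors' table called a few. With edgeR, 0 of the 112 tested members were called for BPA in KO, and 14 of the 112 had an unadjusted p under 0.05. Among all genes 0.0148% were called and 4.31% reached that unadjusted level, a smaller share than among the members. For BPA in WT 0 were called, with 11 of the 112 at an unadjusted p under 0.05, against 0% and 18.8% of all genes. Here the unadjusted share was larger among all genes, and neither difference in share was tested. For BPA in WT DESeq2 called 3 members, Ppp4r1l-ps at 0.24, Gpr137b-ps at 0.61 and Rps12-ps3 at -0.40. Their DESeq2 adjusted p-values were 0.000823 to 0.0313, and 5.06% of all genes were called by that tool. For stigmasterol 0 were called in KO, with 5 unadjusted, against 0% and 3.85% of all genes. In WT 0 were called, with 5 unadjusted, against 0.00494% and 8.26% of all genes. The interaction with genotype was called for 0 members for BPA, with 11 unadjusted, against 0.0148% and 8.83% of all genes. For stigmasterol it was called for 0, with 10 unadjusted, against 0.00987% and 9.16% of all genes. DESeq2 and limma-voom also called 0 in each of these comparisons except BPA in WT, where limma-voom called 0. The authors' deposited table called 0 members for stigmasterol in WT and in KO, with 0.0368% and 0.0153% of all genes.

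The smallest exposure p-values belonged to few members. Ppp4r1l-ps had 68.3, 70.3, 70.8 and 73.8 CPM in WT BPA libraries, against 54, 61.2, 61.6 and 62.3 CPM in WT vehicle libraries. The groups did not overlap, and the difference of 0.24 ± 0.0516 (SE) had an edgeR adjusted p of 0.0609. In the authors' deposited table the same comparison stood at 0.24 with an adjusted p-value listed as 0, and Gpr137b-ps at 0.6 with 0.03, in a comparison where that table called 2.96% of all genes. Gpr137b-ps, named after a lysosomal membrane protein gene, had 5.48 to 5.81 CPM in WT BPA libraries, against 2.44 to 4.8 CPM in WT vehicle libraries.

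For BPA in KO, the authors' deposited table called 1 member, Stk19-ps1 at -2.16 with an adjusted p-value of 0.02, and 0.0551% of all genes. The edgeR fit gave it -2.12 ± 0.616 (SE, edgeR adjusted p = 0.896). Nlrp5-ps stood at 3.11, 3.44 and 3.56 CPM in KO BPA, at 2.69, 3.59 and 4.58 CPM in KO stigmasterol and at 1.87, 1.93 and 2.01 CPM in KO vehicle libraries. Both exposed groups lay above vehicle, by 0.80 (edgeR adjusted p = 0.896) for BPA and 0.90 (edgeR adjusted p = 0.981) for stigmasterol. In WT testes stigmasterol gave -0.10 for the same gene, and the interaction of 1.00 had an edgeR adjusted p of 0.314. Other values of this kind were 1.48 for Btnl7-ps on BPA in KO, 1.46 for Anp32b-ps1 and 0.18 for Ppp4r1l-ps on stigmasterol in KO, and 1.11 for Rpl13-ps1 and -0.92 for Rpl31-ps11 on stigmasterol in WT, with edgeR adjusted p-values of 0.441 to 1. Rpl3-ps1 on stigmasterol in WT gave -7.57 ± 1.96 (SE, edgeR adjusted p = 0.333), a value set by the low and high animals described above.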

How the data were processed

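Total RNA from 21 testes was sequenced from libraries made with a kit that does not keep strand, per the labels' protocols. Base calling with CASAVA 1.8.2 and alignment with Bowtie, TopHat2 2.0.10 and Bowtie2 2.1.0 to mm10 are listed in the submitters' processing notes. The deposited table gave, per the file headers, a raw count per gene and library, the authors' normalized signal and that signal divided by gene length. It also held the authors' log2 fold changes and adjusted p-values for 4 exposure comparisons, deposited without replicate values. How reads that match a copy and its parent equally were counted is not stated in these sources. Raw counts summed to 35459523 to 61498855 per library.

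Counts were tested in R 4.3.3 with edgeR 4.0.16 (TMM scaling, 6 group means, quasi-likelihood F-test, Benjamini-Hochberg over 20254 genes, threshold 0.05) after its default filter, with a minimum count of 10 and a minimum total of 15. DESeq2 1.42.0 and limma 3.58.1 (voom), other scalings and filters, and fits without 1 library each were alternatives. The test code was tested on simulated data. Copies were aligned to GENCODE M21 transcripts (GRCm38, the same assembly as mm10) with blastn 2.17.0, keeping matches over 50% of the copy at 70% identity or more. Parents were taken by name, or else as the closest coding match.

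Named members were those present in one genotype only, the 10 largest rises and falls of at least 1 on the log2 scale, at most 5 called members a contrast, the 10 most abundant, their parents and, where a contrast called none, the 3 with the smallest p. Other members called in the genotype average, members with a gap between libraries and other genes of the table that are named were chosen after their values were seen. So were the gap rule, the floors of 12 and 20 reads and the adding of reads to parents. Members and lists were chosen with earlier results of these data known. Replicates are individual mice. The values of 1 parent gene are not reported here.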

Additional observations from a re-analysis of the deposited data

Results flagged for a closer look

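Among 93 tests of a far sample in WT groups of 4 animals, over 31 members, 14 found 1 animal far from the other 3. Chance gives about 1 in 20 such flags for normally distributed values only. Many values here were not of that kind. Some members were tested at very low counts, where an animal with any read is flagged if the other 3 have no reads. Others were members with a gap between libraries. The count of 14 therefore cannot be compared with that rate and does not show an excess of far animals. KO groups held 3 animals and were not tested. All values are CPM.

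WT BPA animal T60 stood apart in 4 members. It had 28.2 for Eif4a-ps4, against 1.38 to 1.89 in the other 3 animals, and 3.28 for Eif5al3-ps, against 0.0217 to 0.0477. It had 1.29 for Mrpl48-ps, against 0 to 0.0477, and 0.0195 for Kifc5c-ps, which is 1 read, against 0. WT BPA animal T74 had 0.592 for Oaz2-ps, against 0.0217 to 0.0586, and 0.0657 for Stk19-ps1, against 0.0195 to 0.0238.

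On vehicle, WT animal T71 had 3.26 for Mrpl48-ps, against 0 to 0.0266, and 17.4 for Pisd-ps2, against 16.4 to 16.5. The same animal was the lowest for Ppp4r1l-ps at 54, against 61.2 to 62.3. WT vehicle animal T66 had 2 for Tmem181c-ps, against 0.451 to 0.693, and 0.0439 for Kifc5c-ps, which is 2 reads, against 0. WT vehicle animal T81 had 1.09 for Eif3s6-ps2, against 0 in the other 3.

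On stigmasterol, WT animal T78 had 15.2 for Pcna-ps2, against 7.33 to 8.53, and WT animal T119 had 0.0589 for Tma7-ps, which is 2 reads, against 0.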

How the results depend on the processing

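Called members in the genotype average numbered 18, and between 13 and 23 when 1 library was left out. DESeq2 gave 21 and limma-voom 17, and other scalings, filters and read sums gave 12 to 18. Without the 9 libraries high in Cdh16, each KO group held 1 animal, T90 on vehicle, T25 on BPA and T15 on stigmasterol. Calls from that fit are therefore not counted here. On vehicle DESeq2 called 12 and a filter of at least 50 reads in 3 libraries left 3, with 5 to 8 over the fits without 1 library. On BPA that filter left 1, the groups compared alone gave 1, and leaving out 1 library gave 1 to 3, with 1 without T117, T60, T61 or T75. On stigmasterol DESeq2 called 14 and the groups compared alone gave 3. Leaving out 1 library gave 5 to 11 there, with 5 without T10 or T119. For BPA against vehicle in WT, DESeq2 called 3, and leaving out 1 library gave 0 to 3, with 3 without T79 and 1 without T60. In KO the same exposure gave 0 to 1, with 1 without T117. Parents numbered 11 with DESeq2 and 6 to 12 without 1 library, with 12 without T66 and 11 without T60 or T98. A floor of 10, 12 or 20 reads gave 1 member present in one genotype only each. A gap of 2-fold gave 50 members and one of 8-fold gave 9. The cause of these differences was not tested beyond what the settings themselves change. Among named members, Akt2-ps and Ccnd3-ps kept their call in all 21 fits without 1 library, and Eif5al3-ps in 8. Eif4a-ps4, not called with all libraries, was called in 1 of these fits. Direction was not kept in all fits. Without the libraries high in Cdh16, Eif4a-ps4 went from 1.91 to -0.33 and Eif3s6-ps2 from -2.26 to 0.60. No paired analysis was possible because the animal numbers are all different between groups. Depth limits the 89 members under the filter.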
